A study of Mus musculus with 3 samples.

Results

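The genes described here are those whose RNA was measured in prelimbic cortex (PrL) of mice that overexpressed cFKBP8, and they were set against the same genes in mice that received a vehicle virus. Members were all genes annotated as protein_coding that averaged at least 20 reads over the 3 libraries of the study, which gave 13309 genes of the 54532 in the table and of its 22046 protein_coding genes. cFKBP8 is a protein made from a circular RNA of the FKBP8 gene that is described in higher primates only, so the mice received it from a virus and have no such RNA of their own. Adult male C57BL/6J mice, 6 to 8 weeks old at the start, received adeno-associated virus of serotype 9 in the PrL. The CUMS oe-pep group received rAAV-hSyn-peptide-3×Flag, which was followed by P2A-EGFP-hGH-polyA, the CUMS oe-circ group rAAV-hSyn-circFKBP8-bGH-polyA-CMV-EGFP, and the CUMS vehicle group rAAV-hSyn-bGH-polyA-CMV-EGFP. Expression was checked 2 weeks after injection, and every group then went through 5 weeks of chronic unpredictable mild stress (CUMS), a changing series of mild stressors. The hSyn promoter is active in neurons. The oe-pep vector also differed from the vehicle vector in how EGFP was joined to it and in its polyA signal, so these differences and the peptide cannot be told apart. Each group had 1 library, and the number of mice in a library is not given in the sources used here.

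The PrL is a medial part of the frontal cortex, with excitatory projection neurons, inhibitory interneurons and glia. Myelin is made there by oligodendrocytes, and the ventricle wall nearby is lined by ependymal cells, which bear motile cilia, while the choroid plexus inside the ventricles makes cerebrospinal fluid. Below and behind the frontal cortex lie the striatum and the septum with the basal forebrain, whose cholinergic neurons send axons to the cortex. FKBP8 itself is a peptidyl-prolyl isomerase of the FK506-binding protein family that sits in the outer mitochondrial membrane.

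FPKM, the fragments of a gene scaled by gene length and by the size of the library, was turned back into reads, which numbered 16410635 in genes in the oe-pep library, 14413544 in the oe-circ library and 18084058 in the vehicle library. The share of summed FPKM in mitochondrial genes was 17.0% in oe-pep, 16.4% in oe-circ and 17.0% in vehicle. A fold is the ratio of FPKM, oe-pep over vehicle, with no pseudocount, and a gene was counted as changed by size alone, past 2-fold or past 1.5-fold. Since a group had only 1 library, no value could be set against a replicate and nothing was tested. The intervals are exact 95% conditional binomial (Clopper-Pearson) intervals of the read ratio, which compare these libraries, not the groups, and cover counting error only. The excitatory cortical markers of the labelled tissue were well counted, as all 40 of 40 were members, and Slc17a7, the vesicular glutamate transporter of cortical excitatory neurons, had an FPKM of 253 in oe-pep, 277 in oe-circ and 235 in vehicle. Fkbp8 had 5857 reads in oe-pep, 5137 in oe-circ and 6744 in vehicle, a 0.960-fold FPKM (interval 0.927 to 0.994). The sources used here do not say whether reads of the vector would be counted in Fkbp8, so this value does not check the label.

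Of the 13309 genes, 78 (0.586%) were more than 2-fold higher in oe-pep than in vehicle and 74 (0.556%) were more than 2-fold lower. Another 236 were between 1.5-fold and 2-fold higher and 244 between 1.5-fold and 2-fold lower, so that 314 (2.36%) were past 1.5-fold higher and 318 (2.39%) past 1.5-fold lower. The median log2 ratio was -0.00, its quartiles were -0.12 and 0.11, and 79.6% of genes lay within 1.2-fold. Most changed genes had few reads. Of genes with a mean of 20 to 50 reads, 67 of 1162 were more than 2-fold higher and 48 were more than 2-fold lower, while among the 3705 genes averaging at least 1000 reads 0 were higher and 1, Gapdh, was lower. The interval of the ratio lay above 1 for all 78 higher genes, above 1.5 for 29 and above 2 for 13, and it lay below 1 for 73 of the 74 lower genes, the exception being Fam180a. Among the higher genes 43 had fewer than 20 reads in vehicle, and among the lower genes 37 had fewer than 20 in oe-pep. Such a gene passed the filter through the libraries where it was high, so the counts describe the members and do not support a difference. At the filter itself, the 23 genes with a mean of exactly 20 reads had log2 ratios of -0.79 to 1.65, and the 58 genes just below it had -1.13 to 1.62.

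**Figure D1:**
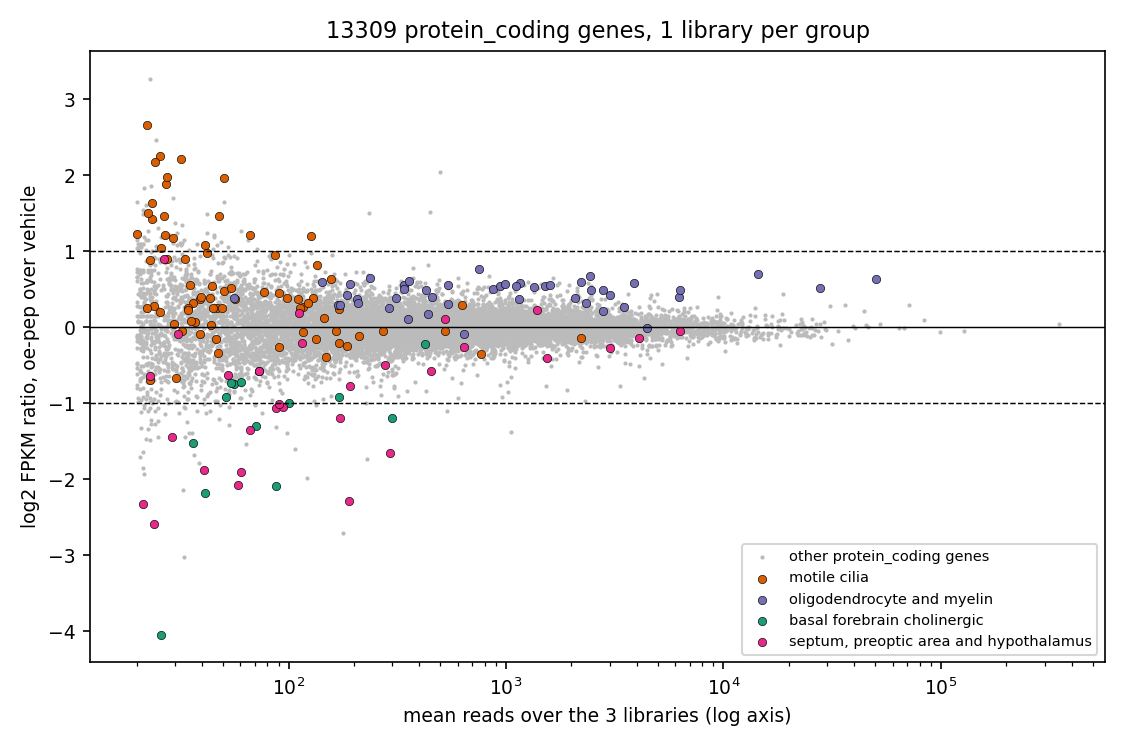
Log2 FPKM ratio of oe-pep over vehicle (y axis) against mean reads over the 3 libraries (x axis, log scale) for the 13309 members, 1 point per gene, with dashed lines at 2-fold. Coloured points are members of 4 gene lists: motile cilia genes past 2-fold lie above 0, basal forebrain cholinergic genes lie below 0, and oligodendrocyte and myelin genes lie mostly between 0 and 1 over a wide range of reads.

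The changed genes were grouped with 29 gene lists, 15 for cells or regions and 14 for functions, and 72 of the 152 genes past 2-fold were in at least 1 list. A count of list members past a limit is to be read beside the share over all 13309 genes. That share was 0.586% past 2-fold higher, 0.556% past 2-fold lower, 2.36% past 1.5-fold higher and 2.39% past 1.5-fold lower. At a mean of 20 to 50 reads 29.4% of genes were past 1.5-fold in either direction. In oe-pep, motile cilia genes held most of the largest higher ratios, genes of oligodendrocytes and myelin were moderately higher at high read numbers, and genes that mark the basal forebrain, septum, preoptic area and hypothalamus held most of the larger lower ratios. Glial, vascular and excitatory cortical lists other than myelin had medians within 0.16 of 0 on the log2 scale. In bulk tissue, fewer cells of a type and less RNA per cell cannot be told apart, and neither can a different share of neighbouring tissue in the piece taken.

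**Figure D2:**
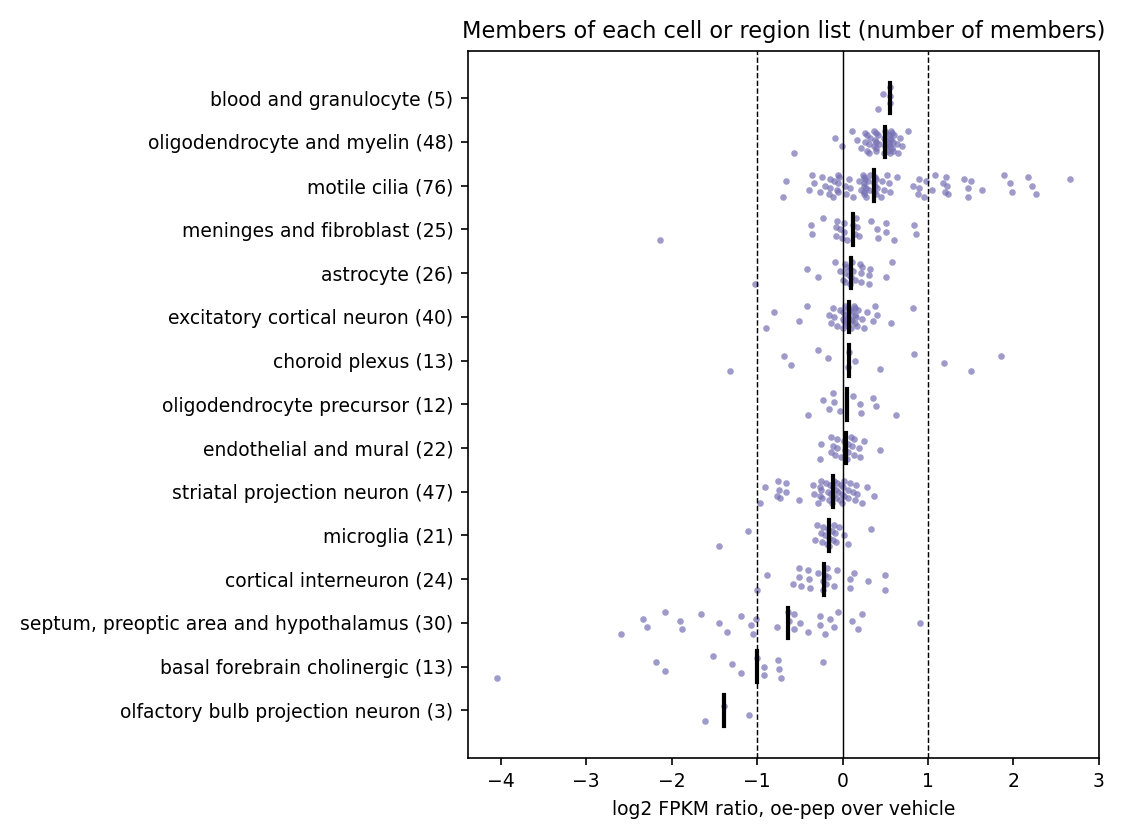
Log2 FPKM ratio of oe-pep over vehicle (x axis) for the members of each cell or region list (rows, with the number of members), 1 point per gene, with the list's median as a black bar and dashed lines at 2-fold. The median was highest for the blood list at 0.55 and for the myelin list at 0.49, and lowest for the olfactory bulb list, with 3 members, at -1.39.

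Motile cilia beat by dynein motors that slide the microtubule doublets of the axoneme, and their genes are switched on by the transcription factors FOXJ1 and RFX. Of the 121 motile cilia genes 76 were members, of which 19 were more than 2-fold higher and 0 more than 2-fold lower, and 26 were past 1.5-fold higher and 2 (Dnah17 and Dnah7a) past 1.5-fold lower. Their median log2 ratio was 0.37, against -0.00 over all 13309 genes, and 18 members lay below 0. Foxj1 had 199 reads in oe-pep, 84 in oe-circ and 96 in vehicle, a 2.29-fold higher FPKM in oe-pep than in vehicle (interval 1.79 to 2.95). It was the only motile cilia gene past 2-fold with a mean of at least 100 reads. Foxj1 lies at chr11:116330704-116335399 on the minus strand in mm10. The 4 other members among the ciliary regulators, Rfx2, Rfx3, Ccno and Trp73, were within 1.5-fold.

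The promoters of 4 of these genes are shown because cilia genes are known to share binding sites of RFX factors, whose core holds the letters GTTGCC or GTTGCTA. Both words were searched on both strands in RefSeq promoters of GRCm38.p6, 250 bases before to 50 bases after the start, and capitals mark a match, written as its reverse complement where it lies on the other strand. They are the 4 genes with the highest ratios among the cilia genes past 1.5-fold higher whose promoter held either word: Cdhr3 (chr12:33092826-33093125, minus strand), Dnah6 (chr6:73221582-73221881, minus), Ubxn10 (chr4:138725216-138725515, minus) and Ccdc153 (chr9:44240427-44240726, plus).
Cdhr3: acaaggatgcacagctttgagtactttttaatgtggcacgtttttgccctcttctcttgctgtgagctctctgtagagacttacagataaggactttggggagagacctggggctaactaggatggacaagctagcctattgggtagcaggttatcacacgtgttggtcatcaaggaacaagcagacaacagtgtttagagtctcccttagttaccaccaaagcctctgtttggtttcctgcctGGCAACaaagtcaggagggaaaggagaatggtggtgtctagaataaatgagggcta
Dnah6: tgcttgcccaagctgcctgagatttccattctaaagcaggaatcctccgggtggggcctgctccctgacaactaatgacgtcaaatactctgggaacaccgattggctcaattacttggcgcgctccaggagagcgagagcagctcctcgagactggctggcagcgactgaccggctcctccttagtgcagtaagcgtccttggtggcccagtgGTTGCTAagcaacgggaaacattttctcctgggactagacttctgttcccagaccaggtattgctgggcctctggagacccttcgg
Ubxn10: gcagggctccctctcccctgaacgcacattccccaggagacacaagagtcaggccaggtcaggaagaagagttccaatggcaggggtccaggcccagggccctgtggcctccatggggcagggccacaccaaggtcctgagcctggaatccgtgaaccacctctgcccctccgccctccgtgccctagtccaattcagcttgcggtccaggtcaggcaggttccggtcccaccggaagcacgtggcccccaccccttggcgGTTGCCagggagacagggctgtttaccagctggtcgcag
Ccdc153: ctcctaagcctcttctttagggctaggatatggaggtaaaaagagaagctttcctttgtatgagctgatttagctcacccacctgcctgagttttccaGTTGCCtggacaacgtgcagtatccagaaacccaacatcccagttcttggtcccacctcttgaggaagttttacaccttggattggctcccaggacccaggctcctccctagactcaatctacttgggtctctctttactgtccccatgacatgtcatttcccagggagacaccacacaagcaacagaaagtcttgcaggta
GTTGCC was present in 12.8% of the 10413 member genes with a promoter sequence, in 28 of 61 motile cilia members (45.9%), in 11 of the 22 past 1.5-fold higher and in 17 of the 39 not past it (43.6%). GTTGCTA was present in 3.49% of all, in 26 of 61 cilia members (42.6%), in 9 of these 22 and in 17 of these 39. Among the genes more than 2-fold lower, 7 of 56 (12.5%) held GTTGCC. These 2 words were chosen from 10 words after the promoters had been looked at. A match describes the letters only, and the cilia genes past 1.5-fold higher held the words in shares near those of the other cilia genes.

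The cilia genes past 2-fold covered the main parts of the ciliary machine. Among the dynein arm genes, 6 of 19 members were more than 2-fold higher. Dnah6, an axonemal dynein heavy chain, had 63 reads in oe-pep, 18 in oe-circ and 15 in vehicle, a 4.64-fold higher FPKM (interval 2.61 to 8.78). Dnali1, a light intermediate chain of the inner arm, had 45, 17 and 11 reads in oe-pep, oe-circ and vehicle, 4.52-fold (2.30 to 9.69). The heavy chain genes Dnah10, Dnah9 and Dnah3 were 2.76-fold, 2.33-fold and 2.06-fold higher, and Dnaic2, an intermediate chain of the outer arm, 2.11-fold. For Dnah3 the oe-circ library had more reads (35) than oe-pep (28) or vehicle (15), so the value in oe-pep was not the highest there.

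Of the radial spoke and central pair genes, 4 of 14 members were more than 2-fold higher, Spef2 (3.09-fold), Lrrc23 (2.84-fold), Hydin (2.76-fold) and Ak7 (2.26-fold). Hydin encodes a large protein of the central pair, and its FPKM was 0.132 in oe-pep, 0.0915 in oe-circ and 0.0479 in vehicle. Rsph4a and Rsph3a, which encode radial spoke proteins, and Cfap54 lay between 1.5-fold and 2-fold higher. Drc7 of the nexin-dynein regulatory complex was 2.35-fold higher (1.26 to 4.56). The other axonemal genes and markers of ciliated cells gave the largest ratios of the list. Tmem212, known as a marker of ependymal cells, had 46 reads in oe-pep, 13 in oe-circ and 8 in vehicle, 6.35-fold (2.97 to 15.6), and Ccdc153, another ependymal marker, had 88, 39 and 25 reads in oe-pep, oe-circ and vehicle, 3.89-fold (2.47 to 6.33). Cdhr3, a cadherin of ciliated cells, was 4.79-fold higher, Ubxn10 3.95-fold, Ttc21a 3.71-fold, Cfap99 2.68-fold and 1700007K13Rik 2.32-fold. Tekt1, Enkur, Cfap206 and Fhad1 were between 1.5-fold and 2-fold higher. None of the 5 members that assemble dynein arms was past 1.5-fold, and the better counted cilia genes Tppp3, Dnal1 and Drc1 had log2 ratios of 0.30, -0.14 and -0.04. Rsph9, of the radial spoke, and Nme5 were 1.31-fold and 1.2-fold lower.

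**Figure D3:**
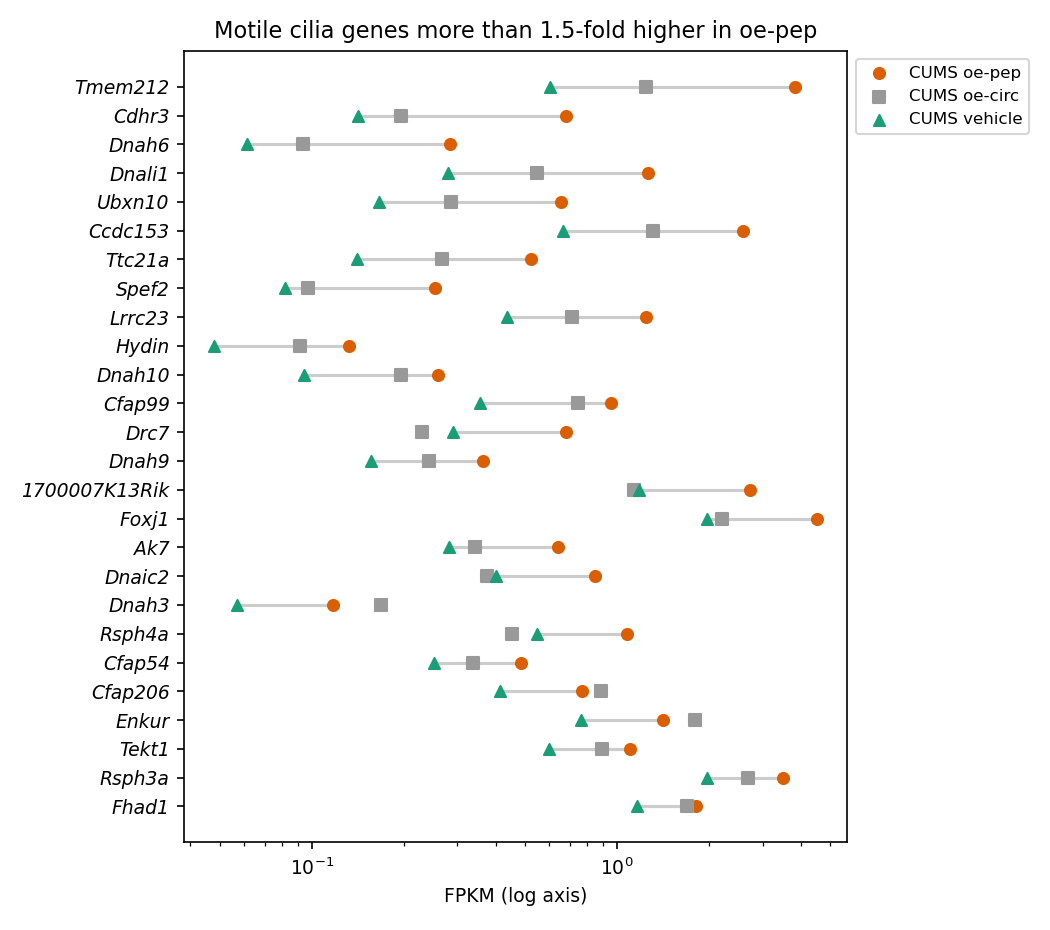
FPKM (x axis, log scale) of the 26 motile cilia genes more than 1.5-fold higher in oe-pep than in vehicle (rows, largest ratio at the top) in the oe-pep (circles), oe-circ (squares) and vehicle (triangles) libraries, with a grey line joining oe-pep and vehicle. For Drc7, Rsph4a, Dnaic2 and 1700007K13Rik oe-circ lay below vehicle, while for Dnah3, Cfap206 and Enkur oe-circ lay above oe-pep.

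The cilia members divided by depth. With a mean of 20 to 50 reads, 16 of 44 were more than 2-fold higher and their median log2 ratio was 0.47, where 5.77% of all genes in that range were as high and the median was 0.04. With at least 100 reads, 1 of 22 was, with a median of 0.04. The 45 cilia genes below the filter had 635 reads in all in oe-pep, 301 in oe-circ and 337 in vehicle, which is 2.08 times as many per reads in genes in oe-pep as in vehicle, and Pih1d3 and Foxn4 had 0 reads in each library. Genes outside the list with a known or named tie to cilia or centrioles include Dnah14 (2.02-fold), another dynein heavy chain. Tedc1 (2.12-fold), which binds the tubulins of the centriole, is another. Both were picked from the genes more than 2-fold higher after their values were seen, so they do not show the direction of such genes.

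The members that mark the choroid plexus differed in both directions in oe-pep, and the genes below the filter had more reads there in sum. Of 26 genes 13 were members, with a median of 0.08, 4 past 1.5-fold higher and 3 past 1.5-fold lower. Ttr, the thyroxine carrier made by the choroid plexus, had 397 reads in oe-pep, 150 in oe-circ and 155 in vehicle, 2.83-fold higher in oe-pep than in vehicle (2.35 to 3.43). Also more than 2-fold higher were 1500015O10Rik at 3.62-fold (36 reads in oe-pep and 11 in vehicle) and Lbp at 2.28-fold, and Slc13a4 was 1.78-fold higher, a gene that meninges express as well. Clic6, a chloride channel gene of the choroid plexus, went the other way with 65 reads in oe-pep, 19 in oe-circ and 179 in vehicle, 2.49-fold lower (1.87 to 3.36), and Car12 and Trpv4 were 1.61-fold and 1.52-fold lower. The best counted member, Enpp2, was 1.35-fold higher (1.29 to 1.41), and Igfbp2, Slc5a5 and Cab39l were within 1.2-fold. The member Kl had 58 reads in oe-pep, 55 in oe-circ and 78 in vehicle, 0.822-fold (0.575 to 1.17). Several other choroid plexus genes were near the floor, with Kcnj13 at 2, 3 and 0 reads, Folr1 at 10, 11 and 1 and Aqp1 at 6, 5 and 6 in oe-pep, oe-circ and vehicle. Otx2, a transcription factor gene of the choroid plexus, had 14 reads in oe-pep, 2 in oe-circ and 6 in vehicle, and Calml4 had 14, 3 and 3 in the same libraries. Sostdc1 and Prlr were nearer to vehicle, with 12, 8 and 13 reads and 18, 11 and 20 reads in the same libraries. Over the 13 genes below the filter there were 114 reads in oe-pep, 62 in oe-circ and 69 in vehicle, 1.82 times as many per reads in genes in oe-pep as in vehicle. The summed FPKM of all 26 genes of the list was 98.9 in oe-pep, 86.1 in oe-circ and 75.4 in vehicle. The part of the choroid plexus in the cilia result was not tested.

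Genes of oligodendrocytes and myelin were moderately higher in oe-pep, and their size was not limited by counting. All 48 of 48 were members, 45 lay above 0 and 3 below (Nkx2-2, Olig2 and Hmgcs1), the median log2 ratio was 0.49, 8 were past 1.5-fold higher and 0 past 2-fold. Mbp, the myelin basic protein gene, had an FPKM of 489 in oe-pep, 269 in oe-circ and 314 in vehicle, 1.56-fold (interval 1.54 to 1.58). Mobp, another myelin protein gene, had 176 in oe-pep, 92.4 in oe-circ and 108 in vehicle, 1.62-fold (1.58 to 1.65). In both genes oe-pep was the highest library and oe-circ the lowest.

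All 16 members that encode myelin proteins were higher in oe-pep, with log2 ratios of 0.17 for Opalin to 0.69 for Mobp, and so were the 15 other genes of mature cells, with 0.29 for Tmem125 to 0.76 for Anln. Those past 1.5-fold were Anln, Mobp, Cldn11, which makes the tight junctions of myelin, Gjb1, a gap junction gene, Mbp, Nkx6-2, Apod and Serpinb1a. Cnp, Plekhb1 and Car2 were 1.31-fold, 1.40-fold and 1.2-fold higher. Of the transcription factors, Sox10 and Myrf, needed for myelination, had log2 ratios of 0.57 and 0.54, while Olig1 and Olig2 had 0.22 and -0.09. The summed FPKM of the list was 2547 in oe-pep, 1611 in oe-circ and 1811 in vehicle. The 12 members of the oligodendrocyte precursor list had a median of 0.05, with Pdgfra, the receptor that defines these cells, at 0.983-fold (0.901 to 1.07), and Sox3 was past 1.5-fold higher with 49 reads in oe-pep, 29 in oe-circ and 35 in vehicle (0.982 to 2.46). Gpr17 was 1.28-fold higher, Tnr 1.09-fold higher, C1ql1 1.08-fold lower and Lhfpl3 1.32-fold lower.

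**Figure D4:**
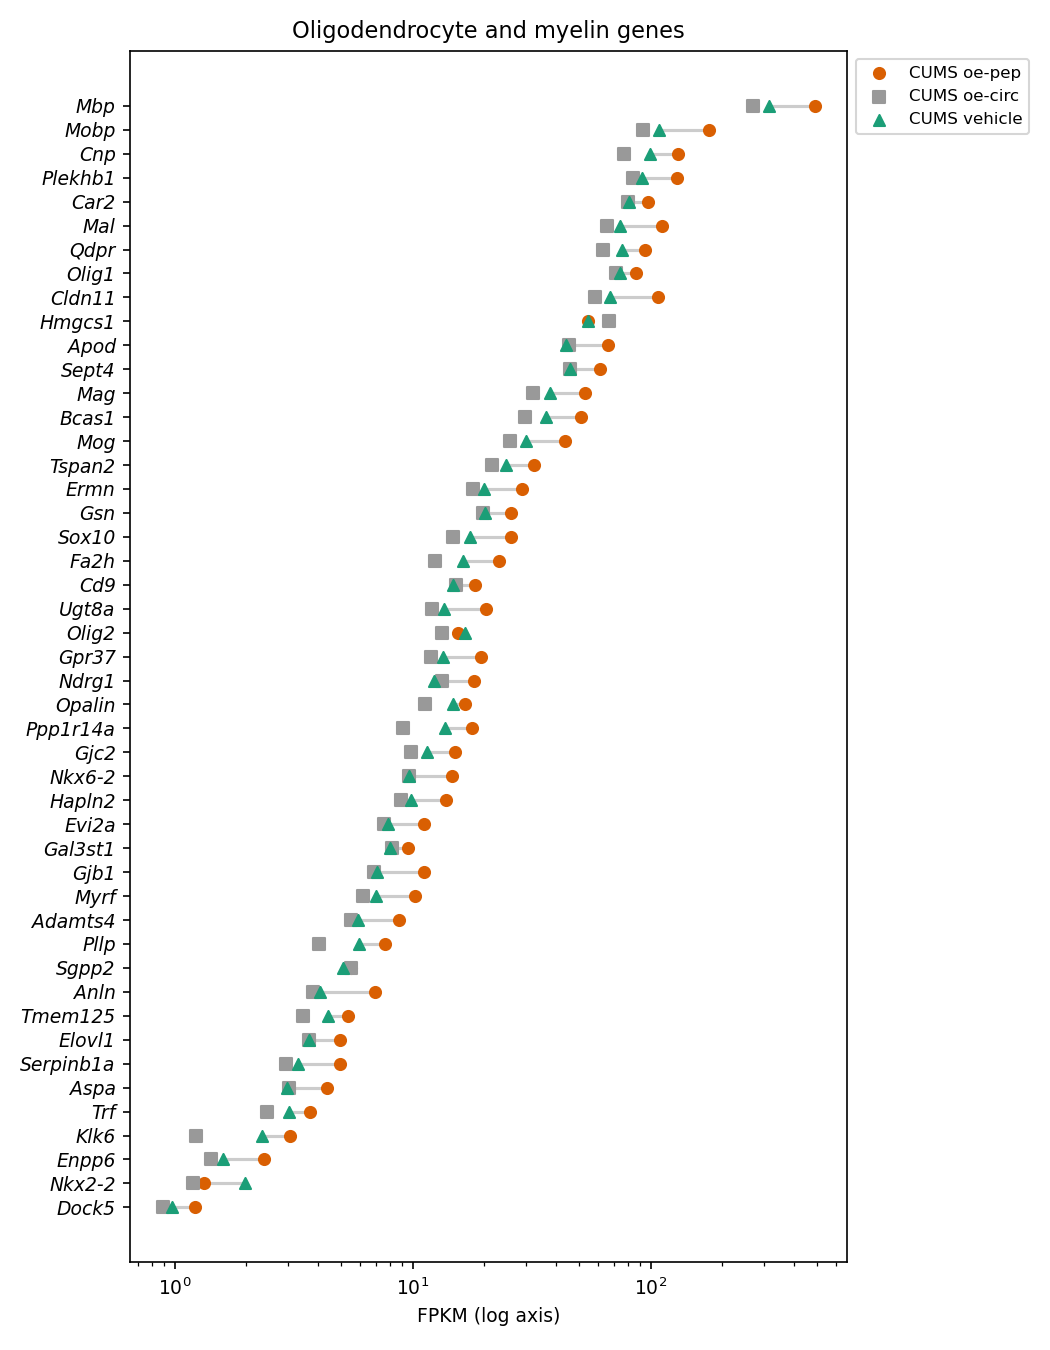
FPKM (x axis, log scale) of 47 of the 48 oligodendrocyte and myelin genes (rows, highest mean at the top) in the oe-pep (circles), oe-circ (squares) and vehicle (triangles) libraries, with a grey line joining oe-pep and vehicle. In 44 of these 47 genes the oe-pep value lay above the vehicle value, with Mbp at 489 in oe-pep and 314 in vehicle at the top.

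Genes that mark cholinergic neurons of the basal forebrain were lower in oe-pep. Of 15 genes 13 were members, all 13 lay below 0, the median log2 ratio was -1.0, 12 were past 1.5-fold lower and 6 past 2-fold lower. Gbx1, a homeobox transcription factor gene, had 4 reads in oe-pep, 1 in oe-circ and 73 in vehicle, 16.5-fold lower in oe-pep than in vehicle (interval 6.18 to 62.2). Lhx8, which directs the cholinergic fate in the ventral forebrain, had 20 reads in oe-pep, 4 in oe-circ and 100 in vehicle, 4.52-fold lower (2.78 to 7.72). Ngfr, a receptor of nerve growth factor on these neurons, had 41, 31 and 192 reads in oe-pep, oe-circ and vehicle, 4.24-fold lower (3.01 to 6.09). For each of these genes the vehicle library was the highest and oe-circ the lowest. In mm10, Gbx1 lies at chr5:24502757-24527202 and Ngfr at chr11:95568818-95587735, both on the minus strand.

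The other members more than 2-fold lower were Nkx2-1, a homeobox gene of the ventral forebrain (2.87-fold), Slc10a4, a transporter of cholinergic vesicles (2.45-fold), and Ecel1, an endopeptidase gene (2.29-fold, with 231 reads in oe-pep, 83 in oe-circ and 584 in vehicle). Chat, the gene of the acetylcholine-making enzyme, stood at the limit with 86 reads in oe-pep, 24 in oe-circ and 190 in vehicle, 2.00-fold lower (1.54 to 2.61). The choline transporter gene Slc5a7 was 1.89-fold lower, Tacr3, a receptor of neurokinin, 1.89-fold, Isl1 1.67-fold and the vesicular acetylcholine transporter gene Slc18a3 1.65-fold. Lhx6, which cortical interneurons also express, was 1.17-fold lower (1.03 to 1.33). The summed FPKM of all 15 genes of the list was 19.6 in oe-pep, 9.02 in oe-circ and 40.5 in vehicle. The comparisons of oe-pep and of oe-circ share the vehicle library, so a high vehicle value enters both.

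Of 45 genes that mark the septum, preoptic area and hypothalamus, 30 were members, with a median of -0.64, 16 past 1.5-fold lower, 1 past 1.5-fold higher and 13 past 2-fold lower. Dlk1, a Notch ligand homologue of hypothalamic and septal neurons, had 82 reads in oe-pep, 45 in oe-circ and 444 in vehicle, 4.90-fold lower in oe-pep than in vehicle (3.86 to 6.28). Baiap3, a protein of dense core vesicle traffic, had 178, 75 and 622 reads in oe-pep, oe-circ and vehicle, 3.16-fold lower (2.67 to 3.76). Zfp503, a zinc finger gene, had 131, 59 and 330 reads in oe-pep, oe-circ and vehicle, 2.28-fold lower (1.86 to 2.81). The orphan receptor gene Gpr101 was 4.22-fold lower and Gpr149, another orphan receptor gene, 3.74-fold.

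Lower by more than 2-fold as well were Arhgap36 (6.03-fold, with 9 reads in oe-pep, 3 in oe-circ and 60 in vehicle), the diacylglycerol kinase gene Dgkk (5.03-fold), Igsf1 (3.66-fold), the imprinted gene Magel2 (2.71-fold), the peptide gene Nts (2.55-fold), Hcn4, a pacemaker channel (2.1-fold), Npy2r, a neuropeptide Y receptor (2.07-fold), and the transcription factor gene Tcf7l2 (2.02-fold). Between 1.5-fold and 2-fold lower were Six3, Mc4r, the melanocortin receptor of feeding circuits, and Esr1, the estrogen receptor. Pomc, the precursor of melanocortins, was the exception with 44 reads in oe-pep, 10 in oe-circ and 26 in vehicle, 1.87-fold higher (1.13 to 3.16). The best counted members were closer to vehicle, with Vgf at 0.968-fold, Peg3 at 0.905-fold, Resp18 at 0.835-fold, Meis2 at 0.830-fold, Nnat at 0.758-fold and Lhx2 at 1.18-fold, and they are expressed in cortex too. Sim1, a defining gene of the paraventricular hypothalamus, had 0 reads in each library. The 15 genes below the filter had 61 reads in oe-pep, 38 in oe-circ and 170 in vehicle.

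**Figure D5:**
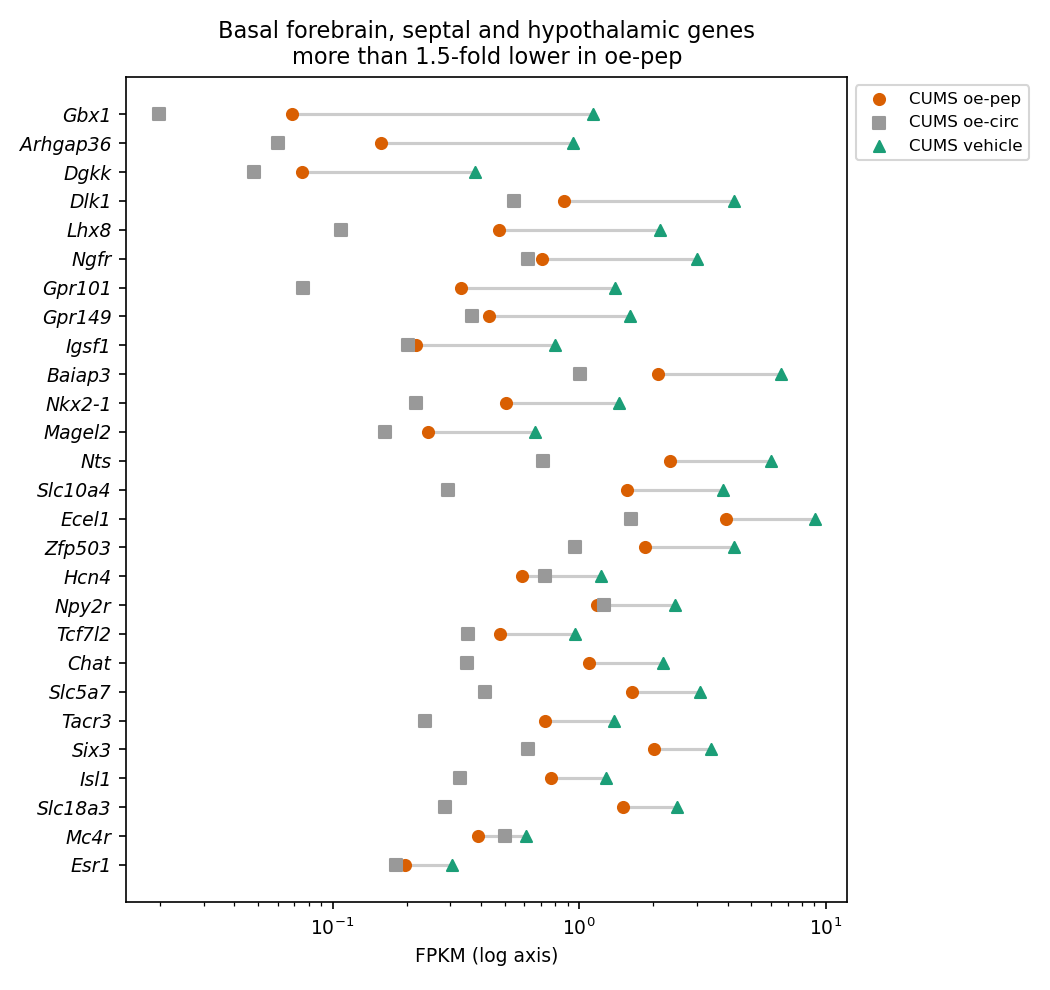
FPKM (x axis, log scale) of 27 basal forebrain cholinergic or septal, preoptic and hypothalamic genes more than 1.5-fold lower in oe-pep than in vehicle (rows, lowest ratio at the top) in the oe-pep (circles), oe-circ (squares) and vehicle (triangles) libraries, with a grey line joining oe-pep and vehicle. Gbx1, at the top, had 0.0687 in oe-pep, 0.0198 in oe-circ and 1.14 in vehicle, and for most of the genes oe-circ lay below oe-pep.

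Of the genes of striatal projection neurons all 47 were members, and 34 lay below 0. The median log2 ratio was -0.11, and 8 of the 47 were past 1.5-fold lower, where 2.39% of all 13309 genes were, while 0 were past 1.5-fold higher and 0 past 2-fold. Of the parts of the list, the 3 peptide precursors had the lowest median, -0.76, while the lowest single ratio, -0.96, was that of a transcription factor gene. Pdyn (prodynorphin) had 763 reads in oe-pep, 533 in oe-circ and 1587 in vehicle, 1.88-fold lower (1.73 to 2.05). Tac1 (substance P) was 1.69-fold lower (1.56 to 1.84). Penk (enkephalin) had an FPKM of 152 in oe-pep, 65.5 in oe-circ and 241 in vehicle, 1.58-fold lower (1.52 to 1.65). Dlx5, Six3, Isl1, Strip2 and the serotonin receptor gene Htr2c were the others past 1.5-fold lower. Other genes of these neurons lay closer to vehicle. Ppp1r1b, an inhibitor of protein phosphatase in dopamine signaling, had an FPKM of 147 in oe-pep, 57.4 in oe-circ and 153 in vehicle. Adcy5, Gng7 and Arpp19 were 1.10-fold, 1.18-fold and 1.01-fold lower. The median of the same list for oe-circ over vehicle was -1.02.

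The olfactory bulb list had 3 members of 8, each more than 2-fold lower in oe-pep. Nrp2, a receptor of semaphorins, had 357 reads in oe-pep, 398 in oe-circ and 844 in vehicle, 2.14-fold lower (1.89 to 2.43), Cdhr1, a cadherin of mitral cells, had 50, 102 and 168 reads in oe-pep, oe-circ and vehicle, 3.04-fold lower (2.21 to 4.26), and Doc2g was 2.62-fold lower (1.53 to 4.67). In each of these genes oe-pep was the lowest library. Of the exon bases of Doc2g, 63.5% are shared on the same strand, where Gm49405 overlaps it. Tbx21 and Eomes, which define these neurons, had 2 and 10 reads in oe-pep and 5 and 14 in vehicle.

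Of the lists drawn up for cortical neurons, the excitatory list was near vehicle and the interneuron list was lower in most members. The excitatory list had a median of 0.08, with Camk2a at 1.03-fold, Nrgn at 1.04-fold, Chn1 at 1.05-fold, Lmo4 at 1.02-fold, Slc17a7 at 1.08-fold and Nptx1 at 1.2-fold. Past 1.5-fold were Tshz2 (1.78-fold higher), Mdga1 (1.87-fold lower) and Otof (1.74-fold lower). Of 25 interneuron genes 24 were members, with a median of -0.21 and 18 below 0. Gad2 and Gad1, the enzymes that make GABA, were 1.42-fold (1.36 to 1.48) and 1.13-fold (1.10 to 1.17) lower in oe-pep. The vesicular GABA transporter gene Slc32a1 was 1.31-fold lower. These genes serve GABA neurons of any region, so they do not mark those of cortex alone. Sst was 1.13-fold lower, Npy 1.07-fold and Calb2 1.85-fold. Pvalb, which marks fast-spiking cells, was 1.23-fold higher (1.12 to 1.36). The other members above 0 were Maf and Prox1 at 1.41-fold each, Vip at 1.10-fold, and Reln and Kcnc1 at 1.06-fold each. Chodl, a marker of long-range somatostatin cells, was just past 2-fold lower with 14 reads in oe-pep and 31 in vehicle.

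Other cells of the tissue were described by their best counted genes. Astrocyte genes had a median of 0.10 over 26 members, with Aldoc at 1.0-fold, Glul at 1.08-fold, Slc1a2 at 1.16-fold, Slc1a3 at 0.983-fold, Mlc1 at 1.02-fold and Atp1b2 at 1.09-fold. Gfap, the intermediate filament gene of astrocytes, had 2215 reads in oe-pep, 1397 in oe-circ and 1640 in vehicle, 1.49-fold higher (1.40 to 1.59), the highest ratio of the list. Agt, angiotensinogen, which astrocytes of ventral brain regions express most, was the only member past 1.5-fold, with 98 reads in oe-pep, 82 in oe-circ and 220 in vehicle, 2.03-fold lower (1.59 to 2.60). Microglial genes had a median of -0.16 over 21 members, with C1qa, C1qb and C1qc at 0.923-fold, 0.948-fold and 0.864-fold, Ctss at 0.915-fold and Csf1r at 0.975-fold. Gpnmb was 2.15-fold lower (1.35 to 3.50), and Abi3 2.71-fold lower, of whose exon bases 75.8% overlap genes on the opposite strand. Endothelial and mural genes had a median of 0.04 over 22 members and 0 past 1.5-fold, with Cldn5 at 0.912-fold, Slc2a1 at 1.14-fold, Ly6c1 at 1.10-fold, Rgs5 and Acta2 at 1.05-fold each and Vtn at 0.958-fold.

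Genes of the meninges and fibroblasts had a median of 0.13 over 25 members. Ogn and Col1a1 were 1.81-fold and 1.52-fold higher in oe-pep, and Mgp, Fmod, Fn1, Slc22a8, Pdgfra and Col6a1 lay within 1.5-fold. Col11a1, a fibrillar collagen gene, was 4.40-fold lower with 14 reads in oe-pep, 16 in oe-circ and 68 in vehicle (2.45 to 8.46). Of the blood list 5 of 11 genes were members and each was higher in oe-pep, within 1.5-fold. Hbb-bs and Hba-a1, which encode globin chains of red cells, were each 1.47-fold higher, Hbb-bt 1.46-fold, Alas2 1.39-fold and Hba-a2 1.33-fold. The summed FPKM of all 11 genes of the blood list was 409 in oe-pep, 315 in oe-circ and 277 in vehicle. The 6 genes below the filter had 88 reads in oe-pep, 47 in oe-circ and 36 in vehicle, 2.69 times as many per reads in genes in oe-pep as in vehicle. Of the granulocyte genes among them, S100a8 had 21 reads in oe-pep, 5 in oe-circ and 5 in vehicle. In the same libraries Ngp had 21, 12 and 5 reads, Camp 12, 7 and 2, and S100a9 17, 14 and 9 (0.880 to 5.31). Lcn2 went the other way with 4 reads in oe-pep, 5 in oe-circ and 9 in vehicle. The blood sum was highest in oe-pep, as the myelin genes were, and its part in the other results was not tested.

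Genes of dividing cells had 29 members of 49, a median of 0.11, 5 past 2-fold higher and 0 past 2-fold lower. All 5 were among the 17 members with a mean of 20 to 50 reads, where 5.77% of all genes were as high, and 0 of the 12 others passed. Mki67, a nuclear protein of cycling cells, had 66 reads in oe-pep, 34 in oe-circ and 26 in vehicle, 2.81-fold higher (1.76 to 4.60). Cdt1, which licenses replication origins, was 2.18-fold higher (1.42 to 3.39), cyclin gene Ccna2 2.60-fold, Ube2t, of DNA crosslink repair, 3.13-fold, and the checkpoint kinase gene Bub1b 2.08-fold. Kif11, a spindle motor gene, was 1.91-fold higher and Anln, which oligodendrocytes also express, 1.70-fold. Cenpe was 1.52-fold lower (0.838 to 2.85). The replication genes with the highest FPKM did not follow, with Pcna at 1.03-fold, Mcm4 at 1.04-fold, Mcm7 at 1.19-fold, Ccne1 at 0.918-fold and Ccne2 at 0.886-fold. Outside the list, Foxm1, a transcription factor of mitosis, and Cenpa, the histone variant of centromeres, were 2.16-fold higher each, whereas Kif4, a chromosome motor gene, was 2.21-fold lower.

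Among genes that glucocorticoids induce, 30 of 31 were members, with a median of 0.13, 5 past 1.5-fold higher and 0 lower. Over all 13309 genes 2.36% were past 1.5-fold higher. The 2 members past 2-fold were among the 4 with a mean of 20 to 50 reads, where 5.77% of all genes were as high. Hif3a had 71 reads in oe-pep, 32 in oe-circ and 37 in vehicle, 2.12-fold higher (1.41 to 3.25), and Plin4, a lipid droplet coat gene, 47, 23 and 22 reads in oe-pep, oe-circ and vehicle, 2.36-fold (1.39 to 4.11). Zbtb16 was 1.77-fold higher (1.54 to 2.02), Depp1 1.57-fold and Hsd11b1, which regenerates active glucocorticoid, 1.5-fold. The receptor gene Nr3c1 was 1.16-fold higher, Klf9 1.18-fold, Fkbp4 1.06-fold and Gpd1 1.02-fold, while Mt1 was 0.972-fold, Ddit4 0.909-fold and Fkbp5, a sensitive glucocorticoid target, 0.970-fold (0.863 to 1.09).

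The FKBP family gave no member past 1.5-fold among 14 of 17 genes, with a median of -0.03, and 11 of the 14 averaged at least 100 reads. Fkbp1a, the binding partner of rapamycin, was 0.857-fold (0.832 to 0.882), Fkbp2 0.943-fold and Fkbp1b 0.991-fold. The 57 genes of AMPK, mTOR and ULK1 autophagy signaling were all members, with a median of 0.02 and 0 past 1.5-fold in either direction. Of these, 56 averaged at least 100 reads. Few of all genes passed 1.5-fold at such depth, 2.32% at 100 to 500 reads, 0.403% at 500 to 1000 and 0.432% from 1000. A count of 0 in either list is therefore near the share over all genes. The kinase subunit genes Prkaa1 and Prkaa2 were 0.883-fold (0.781 to 0.997) and 1.02-fold (0.931 to 1.12). Mtor was 0.963-fold (0.906 to 1.02) and Ulk1, which starts autophagy, 1.07-fold (1.0 to 1.15). Becn1 was 0.988-fold, Map1lc3b 1.02-fold and Sqstm1, an autophagy receptor, 0.991-fold (0.961 to 1.02), and the highest expressed genes Map1lc3a, Gabarap, Gabarapl1 and Lamp1 were 0.915-fold, 0.932-fold, 0.964-fold and 1.04-fold. These are RNA levels, and the phosphorylation of the proteins was not analysed here.

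Dopamine genes had 12 members of 16 and a median of -0.04. Drd1 had an FPKM of 16.3 in oe-pep, 6.63 in oe-circ and 18.0 in vehicle, 0.902-fold (0.828 to 0.981), and Drd2 had 22.6, 6.83 and 22.5 in oe-pep, oe-circ and vehicle, 1.0-fold (0.917 to 1.09). Ncald was 1.07-fold. Drd5 was 1.61-fold lower on 23 reads in oe-pep and 41 in vehicle (0.946 to 2.82). Drd3, a dopamine receptor of the ventral striatum, was not a member, with 5 reads in oe-pep, 2 in oe-circ and 34 in vehicle, 6.15-fold lower in oe-pep than in vehicle (2.39 to 20.2).

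Neuropeptide and hormone precursors had 28 members of 38 and a median of -0.10, with 5 past 1.5-fold lower and 1, Pomc, higher. Cartpt, the precursor of the CART peptide, had 60 reads in oe-pep, 42 in oe-circ and 263 in vehicle, 3.97-fold lower in oe-pep (2.99 to 5.34). Nts, Pdyn, Tac1 and Penk were the others, given above. The most abundant, Pcsk1n, Sst, Cck, Vgf and Chgb, were within 1.2-fold. Among receptors of amines and peptides, 81 of 107 were members, with a median of 0.01, 13 past 1.5-fold lower and 2 higher. Besides those named above, P2ry1, a purine receptor, was 2.03-fold lower with 57 reads in oe-pep, 25 in oe-circ and 128 in vehicle (1.48 to 2.83). Npy5r, Trhr, Oxtr (the oxytocin receptor), Nmbr and Htr1a, a serotonin receptor, were between 1.5-fold and 2-fold lower, with Htr1a at 256 reads in oe-pep, 253 in oe-circ and 430 in vehicle (1.30 to 1.78). Glp2r was 2.04-fold higher and Lpar1, which oligodendrocytes express, 1.57-fold higher. The best counted receptor genes S1pr1, Adora1, Ntsr2, Cnr1 and Hrh3 were 1.13-fold, 1.14-fold, 1.08-fold, 1.05-fold and 1.01-fold.

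Ion channel genes had 111 members of 118 and a median of -0.03, with 9 past 1.5-fold lower and 0 higher. Gabrq, a GABA receptor subunit of hypothalamus and brainstem, was 3.82-fold lower on 9 reads in oe-pep and 38 in vehicle, and Trpv3 2.53-fold lower on 15 reads in oe-pep and 42 in vehicle. Trpc5, Kcna5 and Glra2 were between 1.5-fold and 2-fold lower, like Trpv4 above. The channels with the highest FPKM were close to vehicle, with Hcn2 at 1.05-fold, Scn4b at 1.12-fold, Scn2b at 0.965-fold, Kcnj4 at 0.909-fold and Gria1 at 0.873-fold. Immediate early genes, which neuronal activity induces, had a median of 0.08 over 26 members. Npas4 was the only member past 1.5-fold, with 200 reads in oe-pep, 173 in oe-circ and 364 in vehicle, 1.65-fold lower (1.38 to 1.97), while Egr1 and Ier5 were 1.36-fold and 1.44-fold higher, Arc 1.19-fold, Egr3 1.18-fold, Egr4 1.09-fold and Junb 0.937-fold.

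Immune and interferon genes had 41 members and a median of -0.03, with 5 past 1.5-fold higher and 4 past 1.5-fold lower. Gbp2, an interferon-induced GTPase, was 1.92-fold higher (1.32 to 2.83), C4b, a complement gene, 1.57-fold, C1ra 1.62-fold and H2-Aa 1.82-fold. Irf7, Iigp1 and Ifit1, which interferon also induces, were 1.92-fold, 1.56-fold and 1.55-fold lower, and Ido2 3.12-fold lower on 9 reads in oe-pep and 31 in vehicle. Cx3cl1, B2m, Cxcl14, H2-D1 and H2-K1 were 0.937-fold, 1.01-fold, 0.977-fold, 0.899-fold and 1.14-fold, and Ccl21b is given with its copies. Heat shock and chaperone genes had a median of -0.09, with Hspa8, Hsp90ab1, Hsp90aa1, Calr and Hspd1 at 0.95-fold, 0.921-fold, 0.945-fold, 0.882-fold and 0.866-fold, Cryab, which oligodendrocytes express, at 1.43-fold, Hspb1 at 1.54-fold lower, and Cdnf, a neurotrophic factor, 2.81-fold higher on 33 reads in oe-pep and 13 in vehicle. Glycolysis and reference genes had a median of -0.08, with Actb at 0.948-fold, Ywhaz at 0.902-fold, Pkm at 0.923-fold, Ldhb at 0.981-fold and the better counted of 2 Aldoa entries at 0.912-fold.

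Several changed genes have near-identical copies, among which reads can be split. A search of 150 of the 152 changed genes found a match at 95% identity or more over at least 50% of the transcript for 15. It did not separate copies elsewhere from genes that overlap at the same locus. Gapdh, a glycolytic enzyme gene often used as a reference, had an FPKM of 11.6 in oe-pep, 0.865 in oe-circ and 30.1 in vehicle, 2.59-fold lower in oe-pep than in vehicle (2.39 to 2.81), and 70 genes held a near-identical transcript. Sumo2, a ubiquitin-like modifier gene, had 1020 reads in oe-pep, 193 in oe-circ and 273 in vehicle, 4.13-fold higher. The search found no near-identical copy of Sumo2, but it needed 50% of the transcript, so a shorter copy would be missed. Sumo2 was set beside Gm10241, an annotated processed pseudogene of 286 bases that was picked from earlier results of these data. Gm10241 had 120 reads in oe-pep, 521 in oe-circ and 548 in vehicle. Summed with Gm10241 the ratio per reads in genes was 1.53 (1.40 to 1.68). Srp54b, a signal recognition particle gene, was 6.54-fold lower with 44 reads in oe-pep, 174 in oe-circ and 318 in vehicle, and summed with Srp54a and Srp54c the ratio was 0.559 (0.493 to 0.633). Dynlt1b was 2.32-fold higher and Dynlt1c 3.28-fold lower, and summed with Dynlt1a and Dynlt1f the ratio was 0.978 (0.734 to 1.30). Ccl21b was 9.67-fold higher on 35 reads in oe-pep, 30 in oe-circ and 4 in vehicle. The entries named Ccl21a, Ccl21b and Ccl21c together had 61 reads in oe-pep, 32 in oe-circ and 14 in vehicle. That sum leaves out Gm10591, a copy of Ccl21b at 100% identity, which was 2.44-fold lower. Gm10591 had 26 reads in oe-pep, 64 in oe-circ and 70 in vehicle, so the rise of the named entries may not hold for all copies. Sumo3, a relative of Sumo2, was 1.1-fold lower. Slc10a4, Xlr3b (3.22-fold lower), Gm9844 (2.62-fold lower), 9030025P20Rik (2.33-fold lower) and Gm14434 (8.14-fold lower) also had such a copy, so their values are uncertain. The value of Gm14434 (1.13 to 357) rests on 1 read in oe-pep, 89 in oe-circ and 9 in vehicle. For Abi3, Ajm1 (3.04-fold higher), Nme2 (2.15-fold higher) and Zfp58 (2.54-fold higher) the match was a gene that overlaps at the same locus. It lies on the opposite strand for Abi3 and Ajm1, and on the same strand for Nme2 and Zfp58. The values of these genes are uncertain as well.

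The 13 mitochondrial DNA genes had a median of -0.05. The abundant genes mt-Co1, mt-Cytb, mt-Nd1, mt-Nd2, mt-Nd4 and mt-Nd5 were 1.03-fold, 0.963-fold, 0.954-fold, 0.991-fold, 0.994-fold and 1.07-fold. The neighbouring ATP synthase genes mt-Atp8 and mt-Atp6, which overlap, were 2.04-fold and 1.72-fold lower, with 2681 reads together in oe-pep, 2390 in oe-circ and 5099 in vehicle. Higher by 1.5-fold were mt-Co3 (3175 reads in oe-pep, 1657 in oe-circ and 2333 in vehicle) and mt-Nd4l.

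The changed genes in no list numbered 44 higher and 36 lower. The best counted of the higher ones was Yjefn3, a YjeF domain gene, with 797 reads in oe-pep, 231 in oe-circ and 308 in vehicle, 2.86-fold higher (2.5 to 3.27). Shmt1, the cytosolic serine hydroxymethyltransferase of folate metabolism, had 85, 36 and 30 reads in oe-pep, oe-circ and vehicle, 3.13-fold (2.04 to 4.92). The cytochrome P450 gene Cyp2j12 had 100 reads in oe-pep, 35 in oe-circ and 46 in vehicle, 2.40-fold (1.68 to 3.48). In each of them oe-pep was the highest library, and oe-circ was below vehicle for Yjefn3 and Cyp2j12 and above it for Shmt1. Metabolic enzymes among the rest were Car13, a carbonic anhydrase (3.56-fold), Bbox1, of carnitine synthesis (2.21-fold), Agpat2, of phosphatidic acid synthesis (2.14-fold), and Akr1c18, an aldo-keto reductase (2.05-fold). Muscle-type genes were Tnni1, the slow troponin I (2.05-fold, 102 reads in oe-pep, 58 in oe-circ and 55 in vehicle), Ky (2.31-fold) and Mypn (2.02-fold).

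Kinases, phosphatases and repair genes among the higher ones were Dapk2, a death-associated kinase (3.25-fold, 1.88 to 5.90), Cdc14a, a cell cycle phosphatase (2.21-fold, 1.55 to 3.18), and Neil2, a DNA glycosylase (2.21-fold). Receptors and immune genes were Cxcr4, a chemokine receptor (2.07-fold), Tlr2, which senses bacterial lipoproteins (2.1-fold), Gpr182 (2.11-fold), Unc13d, of granule release (2.14-fold), and Prss16, a thymic protease (2.06-fold). Transcription factor genes were Foxl2 (2.47-fold) and Atoh7 (2.21-fold), and 4930522L14Rik was 2.91-fold higher. Sag, a retinal arrestin, was 2.65-fold higher, Llgl2, a polarity gene, 2.14-fold, Sec16b, of the secretory pathway, 2.14-fold, Fbxo36 2.14-fold, Cilp2 2.21-fold, Tspan11 2.28-fold, the claudin gene Cldn34c1 2.27-fold and the ubiquitin ligase gene March10 2.14-fold. Named only are Gm6741 (5.53-fold on 25 reads in oe-pep, 44 in oe-circ and 5 in vehicle), Lrrc74b, Spata1, 2410004P03Rik, 4930432K21Rik, 1110017D15Rik, 1700020L24Rik and A630089N07Rik, the last 7 between 2.02-fold and 2.41-fold.

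The best counted of the 36 lower genes in no list was Ndst4, a heparan sulfate sulfotransferase gene, with 123 reads in oe-pep, 111 in oe-circ and 454 in vehicle, 3.34-fold lower (2.73 to 4.11). AW551984 followed with 63, 48 and 183 reads in oe-pep, oe-circ and vehicle, 2.63-fold lower (1.96 to 3.56), and Slc27a2, a fatty acid transporter gene, with 31 reads in oe-pep, 61 in oe-circ and 99 in vehicle, 2.89-fold lower (1.91 to 4.48). In each the vehicle library was the highest. Matrix and adhesion genes were Col14a1 (2.15-fold), Col6a4 (2.51-fold), Cdh23 (2.78-fold), Kcp (2.15-fold), Nphs1, the nephrin gene of kidney (3.62-fold), and Pcdhga1 (2.06-fold), 39.5% of whose exon bases lie in other genes of the gamma protocadherin cluster. Metabolic genes were Ucp3, a mitochondrial uncoupling protein (3.44-fold), and Arsj, an arylsulfatase (2.38-fold).

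Immune and signaling genes among the lower ones were Socs1, an inhibitor of cytokine signaling (2.16-fold), Rtp4, which interferon induces (2.19-fold), Samsn1 (2.41-fold), Casp6, a caspase (2.18-fold), Angpt2, an angiopoietin (2.09-fold), and the kinase gene Stk32b (2.71-fold). Regulators of transcription were Hlx, a homeobox gene (2.09-fold), Tbx18, of mural and meningeal cells (2.02-fold), and Sfmbt2, a Polycomb group gene (2.07-fold). Fam196b (2.31-fold), Pabpc5, a polyA-binding protein (2.80-fold), Msantd1 (2.41-fold), Ccdc160 (2.00-fold), Fam180a (2.04-fold, 0.842 to 5.41, on 8 reads in oe-pep, 39 in oe-circ and 18 in vehicle), Znrd1as, 1700029J07Rik, I830077J02Rik, 4933407L21Rik and 1810032O08Rik were the others, the last 5 between 2.09-fold and 2.71-fold lower. Most of these genes had few reads in oe-pep, and most of their intervals reached below 1.5-fold.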

How the data were processed

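RNA of PrL tissue was sequenced with a stranded mRNA kit in 3 libraries, 1 per group, grouped by the virus in the labels. The authors deposited FPKM and a gene length for 54532 genes. Tools listed in the processing notes of the submitters are featureCounts 1.6.3, HISAT2 2.1.0 and cutadapt 2.5, with the build mm10, and the annotation release and counting of multiply mapped reads are not given in the sources used here. The paper's methods name RMA and limma. No count model was run, since each group had 1 library. The number of columns that could not be mapped to a sample was 0.

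FPKM times gene length divided by the smallest such value of a library gave whole reads (tolerance 0.01 read). Members and lists were chosen with earlier results of these data known. Every member past 2-fold was named, with the members of a list past 1.5-fold, up to 6 of its highest by mean FPKM, the genes of the study's pathway, and Fkbp8. Any other gene was picked with its values in view. Some genes that the rule names are not reported here, though they stay in the counts and medians. Symbols stored as dates (11) were restored by gene ID, 1 list name was not found, and Aldoa and Ccl27a stand in the table under more than 1 ID. All 152 changed IDs were found in GENCODE vM21, 148 with equal coordinates. Copies were searched with minimap2 2.31-r1302, and a match needed 95% identity over 50% of the transcript. The alternatives were pseudocounts of 0.1 and 1 FPKM, scaling by the median ratio, a mean of 50 reads, no filter, a mean over the oe-pep and vehicle libraries, all gene types, and a call that also needed the interval to exclude 1. The steps were tested on simulated data. Software was pandas 2.3.3, numpy 2.4.6, matplotlib 3.10.9 and scipy 1.17.1 under Python 3.11.15.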

Additional observations from a re-analysis of the deposited data

How the results depend on the processing

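The number of genes more than 2-fold higher and lower was 78 and 74. It was 36 and 46 with a pseudocount of 0.1 FPKM, 7 and 11 with a pseudocount of 1 FPKM, 11 and 26 with a minimum mean of 50 reads, and 607 and 484 without a filter among genes with at least 1 read in both libraries. Past 1.5-fold the numbers were 314 and 318. They were 36 and 60 with a pseudocount of 1 FPKM, 129 and 161 with a minimum mean of 50 reads, and 1098 and 1034 without a filter. A pseudocount draws genes with a low FPKM toward 0, and the filters change how many genes are tested. The other 18 counts stayed within 1.5 times. Of the list medians, 202 values stayed within the median counting error of their genes and 1 moved, that of the 3 olfactory bulb genes, at -0.79 with a pseudocount of 1 FPKM. Scaling by the median ratio shifts every log2 ratio by the median of -0.00375. Among 373 single genes under the 8 alternatives, 92 values moved by more than their counting error, all under a pseudocount. Outside the pseudocounts a gene's ratio stays as it is or shifts by that median, so only a pseudocount could move it. None of the alternatives could change the sign of a gene past 1.5-fold, so they do not check the direction of single genes. No paired analysis was possible because each group had 1 library, and for the same reason no library could be left out. Counting error at 20 to 50 reads limits most of the changed genes.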

Other observations

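Genes outside the protein_coding class held some of the best counted differences. CT010467.1, annotated as a ribosomal RNA, had 23413 reads in oe-pep, 14577 in oe-circ and 12494 in vehicle, 2.07-fold higher in oe-pep than in vehicle (interval 2.03 to 2.12). The annotated miRNA genes Gm23935 and Gm24270 had 5621 and 287 reads in oe-pep and 2871 and 83 in vehicle, 2.16-fold (2.07 to 2.26) and 3.82-fold (2.98 to 4.94) higher. The mitochondrial ribosomal RNA mt-Rnr1 was 1.02-fold and mt-Rnr2 1.01-fold. The part of ribosomal RNA in the other results was not tested.

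Some genes below the filter, picked with their values in view, had their highest counts in vehicle. The 26 genes of the amine and peptide receptor list below the filter differed less as a whole. They had 236 reads in oe-pep, 143 in oe-circ and 334 in vehicle, 0.779 times as many per reads in genes in oe-pep as in vehicle. Gal had 0 reads in oe-pep, 0 in oe-circ and 11 in vehicle. Irs4 had 5 reads in oe-pep, 6 in oe-circ and 35 in vehicle, Adra2b 7, 4 and 31, and Sstr5 6, 5 and 25 in the same libraries.

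The location of the changed genes was noticed after their values were seen. The X chromosome held 454 of the 13309 members (3.41%), 9 of the 74 genes more than 2-fold lower and 1 of the 78 more than 2-fold higher. The lower ones were Arhgap36, Dgkk, Gpr101, Igsf1, Gabrq, Xlr3b, Pabpc5, Kif4 and Ccdc160, of which the first 4 are in the list of septum, preoptic area and hypothalamus. Chromosome 3 held 9 of the 74 lower genes with 4.77% of the members, and chromosome 11 held 11 of the 78 higher genes with 8.21%. Homeobox genes were 64 of all members, 4 of the lower genes (Gbx1, Lhx8, Nkx2-1 and Hlx) and 0 of the higher genes.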
